A study of Mus musculus with 4 samples.

Results

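The subject is 6 long noncoding RNAs, Malat1, Neat1, Kcnq1ot1, Meg3, Rian and Mirg, taken by gene name from RNA-seq of mouse skeletal muscle. They were 6 of 40137 gene units in the deposited tables, each unit being a gene or several overlapping genes counted as one. All 4 libraries came from thigh skeletal muscle of wild-type male C57BL/6J mice, a common inbred strain, with no treatment: 3 libraries at 28 months versus 1 at 18 months. The study asked how alternative splicing changes with age, and its sequencing accompanied exon arrays that were not analysed here. The counts were made per exonic bin, a stretch of exon between annotated boundaries, and a gene's level below is the sum over its bins.

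Malat1 and Neat1 are transcripts of neighbouring genes that stay in the nucleus. Malat1 gathers in nuclear speckles, which store splicing factors, and Neat1 is the scaffold of paraspeckles, bodies that hold RNA-binding proteins. Neat1 is made as a short polyadenylated isoform and as a long isoform that reads on past the short one's end. The long isoform is the one that builds paraspeckles, and its 3′ end, like that of Malat1, is a triple helix with an A-rich strand in place of a poly(A) tail. Kcnq1ot1, Meg3, Rian and Mirg are imprinted, which means that 1 parental copy is active. Kcnq1ot1 is read from the paternal chromosome, antisense within Kcnq1, and silences neighbouring genes on it. Meg3, Rian and Mirg are read in the same direction from the maternal chromosome of the Dlk1-Dio3 domain, a region known in muscle from the callipyge sheep. Rian hosts small nucleolar RNAs and Mirg hosts microRNAs.

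In GRCm38 Malat1 (ENSMUSG00000092341) lies at chr19:5795690-5802672 and Neat1 (ENSMUSG00000092274) at chr19:5824708-5845478, both on the minus strand. Kcnq1ot1 (ENSMUSG00000101609) is a single bin of 93092 bases at chr7:143203458-143296549, minus strand. Meg3 (ENSMUSG00000021268) lies at chr12:109541001-109571726, Rian (ENSMUSG00000097451) at chr12:109603940-109661716 and Mirg (ENSMUSG00000097391) at chr12:109729764-109749460, all on the plus strand. Of the 6, 5 were counted in units that join small RNA genes to the host: Malat1 with Gm27694, Neat1 with Gm27533, Gm27505 and Gm28006, Meg3 with Gm27300, Mir770 and Mir1906-1, Rian with 7 such genes and Mirg with 9 microRNA genes. Bins holding those small genes took 15.2 to 20.8% of Neat1 counts, 3.37 to 5.30% of Rian counts, and 0 to 7.50% of Meg3 and 0 to 7.02% of Mirg counts. Host and small RNA reads cannot be separated in these bins.

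The point where the Neat1 isoforms part is shown first, because counts per kb on its 2 sides differed at least 746-fold in every library. The stretch is chr19:5842247-5842366 on the minus strand of GRCm38 in GENCODE M21, with 60 bases on either side of the annotated end of the short isoform and the poly(A) signal AATAAA in capitals. The Malat1 stretch, chr19:5795912-5796069 on the minus strand, holds the A-rich strand of the 3′ end in capitals. It is shown because the bins numbered first in Malat1, taken to lie toward this end of the gene, carried no counts. The Malat1 bins have no known coordinates, so whether the empty bins overlap this stretch is not known.
Neat1 short isoform end: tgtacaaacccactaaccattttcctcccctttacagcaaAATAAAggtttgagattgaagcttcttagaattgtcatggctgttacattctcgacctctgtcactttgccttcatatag
Malat1 A-rich end: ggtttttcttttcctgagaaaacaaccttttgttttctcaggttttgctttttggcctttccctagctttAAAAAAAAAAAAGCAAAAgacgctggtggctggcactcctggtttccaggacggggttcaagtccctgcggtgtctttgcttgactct

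The Meg3 promoter is shown because Meg3, Rian and Mirg follow one another along the chromosome. They were each highest in the same library, as were all 6 RNAs. It spans chr12:109540746-109541045, plus strand, from 250 bases before to 50 bases after the upstream of the 2 Meg3 starts in the RefSeq table (GRCm38.p6). The other promoter, chr12:109545148-109545447, held none of the motifs below, and its start is the first base of bin 19, the Meg3 bin with the most counts. Bins 1 to 11, next to the upstream start, had 27 counts in replicate 2 and 0 in the other libraries, where 0 allows up to 3. Over all its bins Meg3 had 401 counts in replicate 2, and 26, 40 and 28 in replicate 1, replicate 3 and the 18-month library. At such counts use of the upstream start cannot be compared between libraries. Of the 6 genes, 5 had an entry in the RefSeq promoter table. Both strands were searched for TGACGTCA, the cyclic AMP response element, for TATAAA, the TATA box, for CCAAT, a motif of many promoters, and for GGGCGG, which binds Sp1, and matches are in capitals. TGACGTCA began 57 bases before the start, CCAAT 100 bases before, and TATAAA was matched 25 bases before on this strand and, overlapping it, 29 bases before on the other. TGACGTCA was in 1.79% of 32851 promoters of this length, TATAAA in 13.6%, CCAAT in 37.4% and GGGCGG, not matched here, in 35.7%. The promoters of Malat1, Kcnq1ot1, Rian and Mirg had no match to TGACGTCA, TATAAA or GGGCGG, and those of Kcnq1ot1 and Mirg matched CCAAT. The part of any motif in the levels was not tested.
Meg3 promoter: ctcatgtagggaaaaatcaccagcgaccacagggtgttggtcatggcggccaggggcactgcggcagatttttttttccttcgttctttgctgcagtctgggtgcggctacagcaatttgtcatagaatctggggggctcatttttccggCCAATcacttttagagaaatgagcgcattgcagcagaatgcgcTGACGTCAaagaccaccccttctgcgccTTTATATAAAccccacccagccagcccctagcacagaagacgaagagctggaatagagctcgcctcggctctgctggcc

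The microRNA genes that share units with Meg3 and Mirg had 20 mature RefSeq products with 20 different seeds. A few are shown to say what these units contain, with the seed (bases 2 to 8) in capitals. Mature microRNAs were not measured.
mmu-miR-770-5p: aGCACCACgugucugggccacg
mmu-miR-134-5p: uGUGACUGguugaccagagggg
mmu-miR-382-5p: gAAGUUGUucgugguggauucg
mmu-miR-410-3p: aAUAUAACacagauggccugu

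Counts in bins summed to between 65780464 and 76163175 per library, and no pair of libraries was a duplicate. The tissue label was checked because the extraction text describes skin: myofibre markers summed to between 97180 and 198600 CPM (counts scaled to the library total and TMM factor), keratinocyte markers to between 13.1 and 19.1 CPM, and the keratinocyte genes Krt5, Krt15, Dsg3 and Ivl were at 0 in all libraries. The second library at 28 months, replicate 2, stood apart from the other 28-month libraries, so results that rest on it are given with and without it. Chi-square over degrees of freedom on gene counts was 562 and 530 between replicate 2 and replicates 1 and 3. It was 73.9 between replicates 1 and 3, and 493, 507 and 480 between the 18-month library and replicates 1, 2 and 3. The labels do not tie the libraries to separate animals, so p-values measured the spread between these samples only. With a single 18-month library, its spread was taken from the 28-month ones. Intervals below are exact, at 95%, cover counting error only and take counts as independent. Bins of a few bases held many counts, so a fragment may be counted more than once and the intervals may be too narrow.

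All 6 RNAs were highest in 28-month replicate 2, and for none did the 18-month library fall outside the 28-month values. Malat1 reached 36.1, 207 and 37.3 CPM in the 28-month libraries (replicates 1, 2 and 3, in this order throughout) and 70.8 CPM in the 18-month library, from 2413, 20217, 2253 and 4610 counts. Replicates 1 and 3 were nearly equal, and the 18-month library lay between them and replicate 2. Neat1 was at 118, 454 and 101 CPM at 28 months versus 152 CPM at 18 months, from 7870, 44249, 6101 and 9890 counts. The order of the libraries was again replicate 2, the 18-month library, and then replicates 1 and 3.

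Among the imprinted RNAs, Rian had the most counts, at 2.11, 9.76 and 2.50 CPM at 28 months versus 2.73 CPM at 18 months (141, 952, 151 and 178 counts). Meg3 was at 0.389, 4.11 and 0.663 CPM at 28 months versus 0.430 CPM at 18 months, with 26, 401, 40 and 28 counts. Meg3 had the greatest fold of replicate 2 over replicates 1 and 3 among the 6 RNAs, and its 18-month value lay between those of replicates 1 and 3. Mirg had 12, 57, 1 and 2 counts in the same order, or 0.180, 0.584, 0.0166 and 0.0307 CPM, and at such counts replicate 3 (exact Poisson interval 0.0253 to 5.57 counts) and the 18-month library (0.242 to 7.22) cannot be ranked. Kcnq1ot1 had 25, 127, 18 and 48 counts, or 0.374, 1.30, 0.298 and 0.737 CPM. As for Malat1 and Neat1, its 18-month level lay above replicates 1 and 3 and below replicate 2. The exact Poisson intervals of Kcnq1ot1 in replicate 1 (16.2 to 36.9 counts) and in the 18-month library (35.4 to 63.6) overlapped.

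**Figure D1:**
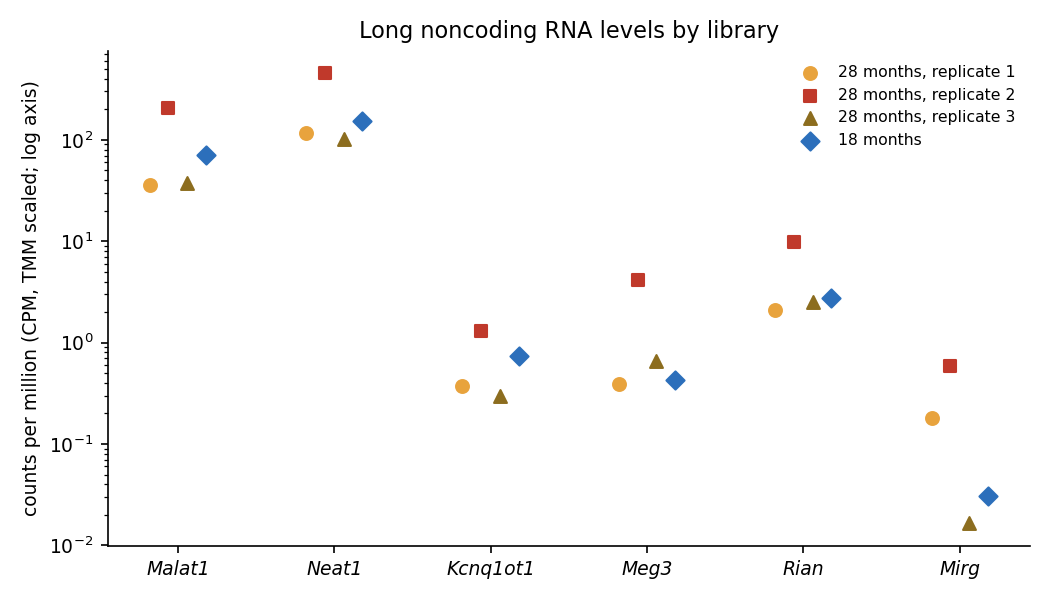
Levels of the 6 long noncoding RNAs in each library, in CPM on a log axis, with 1 point per library. The square of 28-month replicate 2 is the highest point for all 6, and the diamond of the 18-month library lies within the span of the 28-month points for all 6.

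Replicate 2 exceeded the mean of replicates 1 and 3 by 5.64-fold for Malat1, 4.15-fold for Neat1, 3.87-fold for Kcnq1ot1, 7.82-fold for Meg3, 4.23-fold for Rian and 5.96-fold for Mirg. Over 2-fold excess was seen in 6 of 6 members and in 9.89% of the 15376 genes tested. With 0.1 CPM added to each side, the log2 excess was 1.68 for Kcnq1ot1, the lowest of the 6, and 2.75 for Meg3, the highest, against a median of -0.02 over all tested genes. In the Dlk1-Dio3 domain the protein-coding genes Dlk1 and Dio3, which are active on the paternal copy, had no such excess. Dlk1, a transmembrane growth regulator, had 20, 25 and 17 counts at 28 months versus 6 at 18 months. Dio3, a deiodinase that inactivates thyroid hormone, had 13, 14 and 11 counts against 10. Rtl1, a retrotransposon-derived gene, had 1 count in all, in replicate 2, too few to compare. Kcnq1, the potassium channel gene that holds Kcnq1ot1 on its other strand, had 54, 72 and 110 counts at 28 months versus 67 at 18 months, with its highest value in replicate 3.

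Cell type markers differed in replicate 2 as well: of 12 marker lists, the summed level was highest there for 6 and lowest for 5. The counts of markers over 2-fold there stand beside 9.89% of all tested genes. The 10 markers of fibro-adipogenic progenitors, the connective tissue cells of muscle, summed to 2468, 6917 and 3214 CPM at 28 months versus 3265 CPM at 18 months, with 9 of 10 highest in replicate 2, 7 over 2-fold and none at 0. The 8 endothelial markers summed to 243, 444 and 289 CPM against 282 CPM, with 6 highest in replicate 2, 2 over 2-fold and none at 0. The 10 macrophage markers summed to 118, 238 and 227 CPM against 79.7 CPM, with 4 highest in replicate 2, 2 over 2-fold and none at 0. The 10 myofibre markers were lowest there, at 97180 CPM beside 191300 and 198600 CPM in replicates 1 and 3, and stood at 110000 CPM at 18 months. The 11 Schwann cell markers were also lowest in replicate 2, at 201, 101 and 164 CPM at 28 months beside 354 CPM at 18 months. So were the 7 red blood cell markers, at 378, 145 and 3807 CPM beside 183 CPM, with replicate 3 far above the rest. The part of these cell types in the levels of the 6 RNAs was not tested, and in bulk muscle a different number of cells cannot be told apart from a different amount of RNA per cell.

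**Figure D2:**
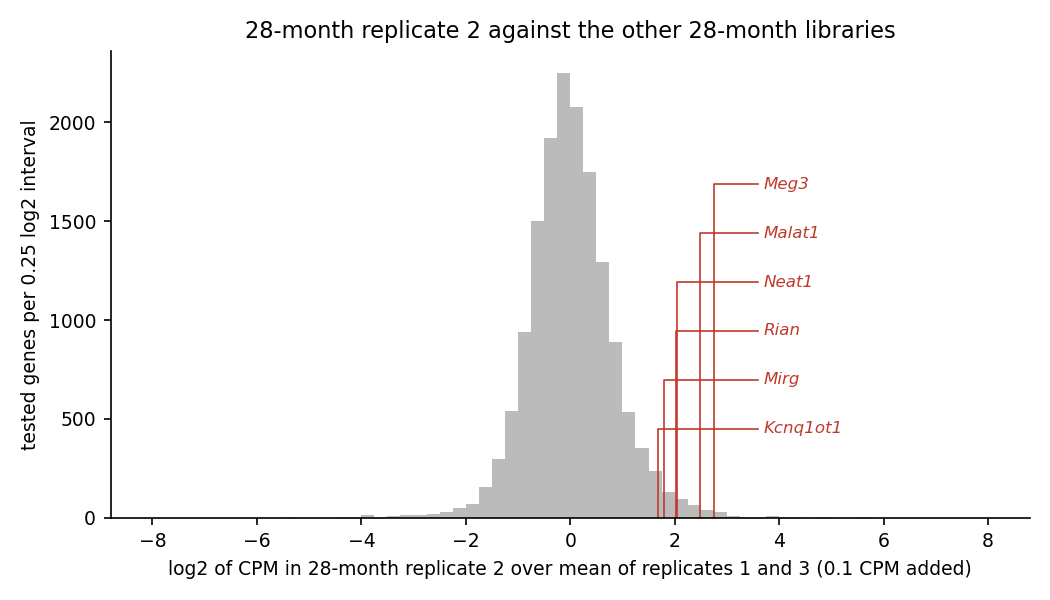
Distribution over 15376 tested genes of the log2 ratio of CPM in 28-month replicate 2 to the mean of replicates 1 and 3, after adding 0.1 CPM, as the number of genes per interval of 0.25. Red lines mark the 6 long noncoding RNAs, which run from 1.68 for Kcnq1ot1 to 2.75 for Meg3, on the right side of a distribution with its median at -0.02.

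Between the ages, none of the 6 RNAs was called. The edgeR quasi-likelihood test over 15376 genes called 0 genes (0%) at an adjusted p under 0.05, with 753 at an unadjusted p under 0.05 and 31 called by DESeq2, and no member was among any of these. The 18-month value lay outside the 28-month range for 0 of 6 members and for 51.8% of tested genes. The log2 difference, 28 minus 18 months, was 0.40 ± 1.13 (SE) for Malat1 (edgeR adjusted p 0.955) and 0.56 ± 0.96 for Neat1 (0.930). It was -0.15 ± 1.01 for Kcnq1ot1 (0.980), 2.01 ± 1.59 for Meg3 (0.869), 0.81 ± 1.01 for Rian (0.903) and 3.05 ± 2.09 for Mirg (0.860). The standard error was larger than the size of the estimate for 4 of the 6, the exceptions being Meg3 and Mirg.

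Without replicate 2 Malat1 was lower at 28 months, at a log2 difference of -0.92 ± 0.15 and an edgeR adjusted p of 0.0214, and it was the only member called. In that fit 4.35% of the tested genes were called lower and 7.39% higher at 28 months, and its residual spread came from replicates 1 and 3 alone. Neat1 was estimated at -0.45 ± 0.14 (adjusted p 0.0895), Kcnq1ot1 at -1.11 ± 0.59 (0.258), Rian at -0.22 ± 0.34 (0.693), Meg3 at 0.31 ± 0.67 (0.786) and Mirg at 1.65 ± 1.61 (0.527). Malat1, Neat1 and Rian thus had positive estimates on all 4 libraries and negative ones without replicate 2. Without replicate 1 or replicate 3 Malat1 was at 0.79 and 0.78 and was not called (edgeR adjusted p 1.00 for each).

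**Figure D3:**
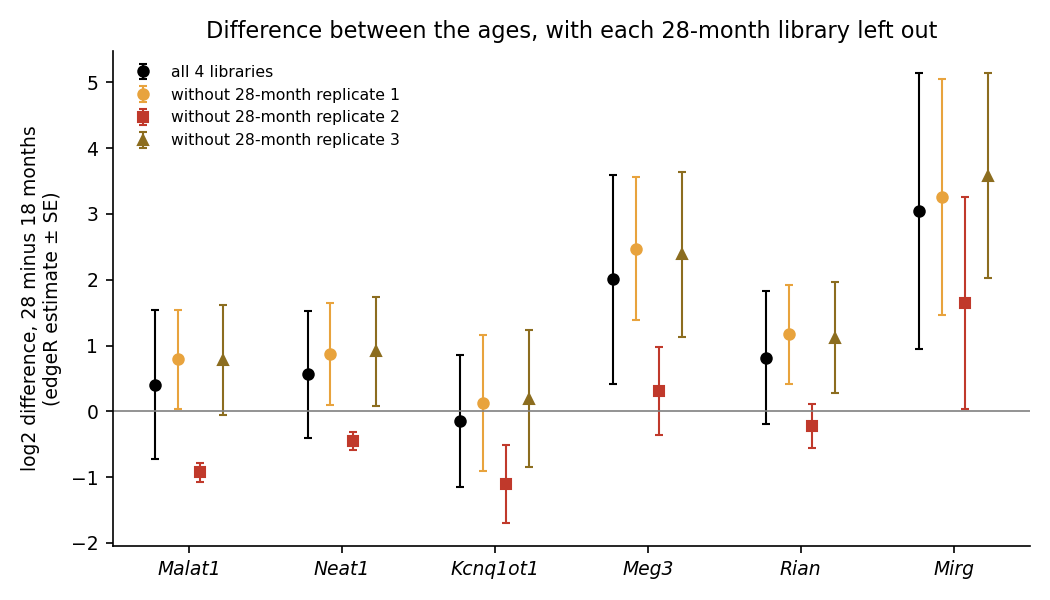
Log2 difference in level, 28 minus 18 months, for each RNA as estimated by edgeR, with bars for the standard error, on all 4 libraries and with each 28-month library left out. Malat1, Neat1 and Rian lie above 0 on all 4 libraries and below 0 without replicate 2, and Malat1 without replicate 2 is the one value with an adjusted p under 0.05.

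Along Neat1 and Malat1 the 18-month library had shares of counts outside the 28-month range, toward the 3′ end in Neat1 and toward the 5′ end in Malat1, which the test of bin use on all 4 libraries did not call. Bins were taken as numbered by rising coordinate, so that on the minus strand bin 1 is at the 3′ end. Among 2936 placed minus-strand units, counts tracked bin length better in this order than in the reverse for 88.9%. Malat1 was not in this check, so its 5′ and 3′ sides rest on the same order being used there. The Neat1 bins could be placed on the annotation, but those of Malat1 could not and are known by number only. The groups of bins below, and those of Rian and Meg3, were not planned in advance, so their shares are a description only. In Neat1, bins 4 to 17, the 1193 bases at the 5′ end, held 48.1, 56.7 and 48.8% of counts at 28 months (51.2% ± 4.75, SD, n = 3) versus 37.2% at 18 months (exact interval 36.2 to 38.1). In 12 of these 14 bins the 18-month share lay below all 28-month shares. Bin 2, at the 3′ end of the short isoform, held 36.5, 29.98 and 35.5% at 28 months versus 47.5% at 18 months, and was the largest bin in every library.

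In Malat1, bins 10 to 18, at the 5′ side, held 62.6, 53.2 and 60.7% of counts at 28 months (58.8% ± 4.94, SD, n = 3) versus 70.0% at 18 months (exact interval 68.7 to 71.3). Of bins 11 to 18, 7 of 8 had an 18-month share above all 28-month shares, and the other had no counts. Bins 4 to 7, toward the 3′ end, held 15.4, 23.2 and 18.6% at 28 months versus 10.6% at 18 months. Bin 10 was the largest in every library, with 38.9, 33.6 and 36.7% at 28 months versus 38.03% at 18 months, followed by bin 8 with 17.1, 19.5 and 16.6% against 15.4%. Bins 1, 2 and 18 carried no count in any library (0, with an upper limit of 3 counts each). Replicate 2 had the lowest 5′ share of Malat1 and the highest 5′ share of Neat1, while the 18-month library had the highest of Malat1 and the lowest of Neat1.

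**Figure D4:**
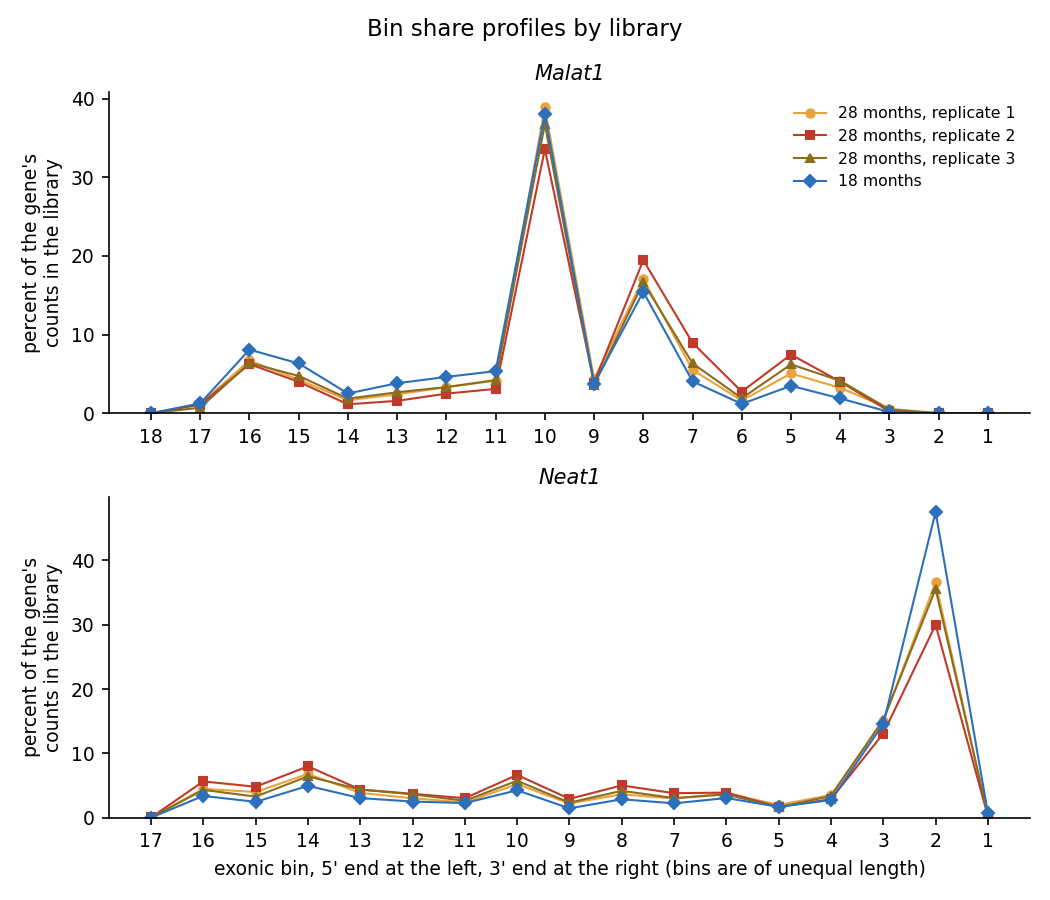
Share of each bin in the gene's counts, in percent per library, for Malat1 and Neat1, with the 5′ end at the left. In Neat1 the 18-month line is highest at bin 2 (47.5%) and mostly lowest toward the 5′ end, and in Malat1 it runs above the 28-month lines at bins 17 to 11 and below them at bins 7 to 3.

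Coverage also differed over the genome: the median share of counts between the 5′ end of a gene and its exonic midpoint, over 5729 placed units, was 47.0, 49.3 and 47.2% in the 28-month libraries and 37.5% at 18 months. The 5′ shares of Neat1 and Malat1 above were taken over other stretches and are not on this measure. At 18 months the share was lower for Neat1 bins 4 to 17. It was higher for Malat1 bins 10 to 18, whose lengths are not known. The part of 5′ coverage in these profiles was not tested.

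Counts over the long-isoform stretch of Neat1 were few. Bin 1, the 17599 bases that only the long isoform covers, had 20, 105 and 25 counts at 28 months versus 73 at 18 months, or 1.14, 5.97 and 1.42 counts per kb against 4.15. The 3172 bases of the short isoform had 7850, 44144 and 6076 counts at 28 months versus 9817 at 18 months, or 2475, 13920 and 1916 counts per kb against 3095. These densities depend on bin width: bin 5, of 3 bases, had 158, 752 and 102 counts at 28 months versus 169 at 18 months, while bin 4 beside it, of 149 bases, had 279, 1283, 206 and 273. The density over the long stretch was 0.0459, 0.0429 and 0.0742% of that over the short isoform at 28 months versus 0.134% at 18 months, the highest of the 4 libraries. The log2 ratio was lower by 1.35 at 28 months, with a two-sided exact permutation p of 0.25 over the 4 libraries, the smallest that this design allows. Against bin 2 alone, which leaves out the 5′ bins where the 18-month share was low, the long stretch was at 0.0543, 0.0618 and 0.0901% at 28 months and 0.121% at 18 months. The log2 difference was then -0.85, with the same permutation p of 0.25, an alternative chosen after seeing the data. The short isoform had at least 746-fold the density of the long stretch in each library. Whether polyadenylated RNA was selected before sequencing is not given in the sources used here. Entries that fell in no annotated bin made up 1.75, 2.74 and 1.67% at 28 months versus 2.90% at 18 months, also highest in the 18-month library. Their part in the bin 1 counts, and in those of the single long bin of Kcnq1ot1, was not tested.

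Rian counts came from its middle and last exons. Bins 38 to 76 held 63.8, 65.5 and 63.6% of counts at 28 months (64.3% ± 1.07, SD, n = 3) versus 53.4% at 18 months (exact interval 45.8 to 60.9). The last exon, bins 77 and 78, held 34.8, 24.8 and 34.4% at 28 months versus 44.4% at 18 months (exact interval 36.95 to 52.0). The exact intervals of the 18-month library and of replicates 1 and 3 overlapped for both groups of bins. The first 36 bins had 0, 73 and 0 counts at 28 months versus 3 at 18 months, and a count of 0 allows up to 3. In replicate 2 these 73 counts were 7.67% of the gene's total (exact interval 6.06 to 9.54).

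Meg3 counts were too few outside replicate 2 for a profile. Bin 19, an exonic stretch of 993 bases at chr12:109545398-109546390, was the largest, with 11, 74 and 7 counts at 28 months versus 14 at 18 months. Bins 1 to 22 held 42.3, 61.6 and 67.5% at 28 months versus 57.1% at 18 months (exact interval 37.2 to 75.5), so the 18-month share lay within the 28-month range. Mirg counts fell in 8, 21 and 1 of its 68 bins at 28 months and in 2 at 18 months. Kcnq1ot1, with 1 bin, has no profile.

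**Figure D5:**
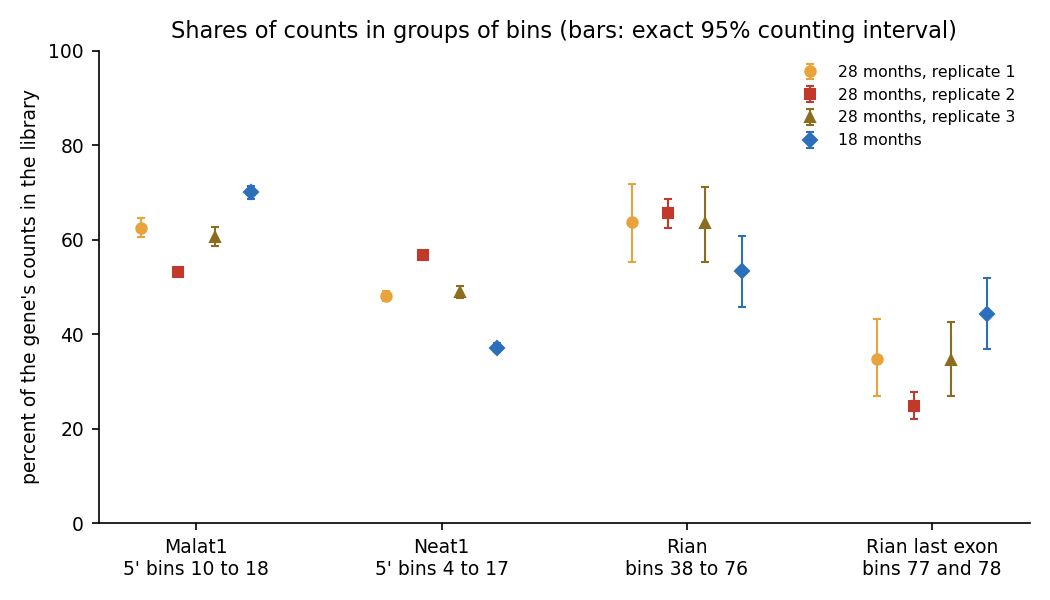
Share of a gene's counts in 4 groups of bins, in percent per library, with exact 95% counting intervals as bars. The 18-month diamond is the highest point for the 5′ bins of Malat1 (70.0%) and the last exon of Rian (44.4%), and the lowest for the 5′ bins of Neat1 (37.2%) and for Rian bins 38 to 76 (53.4%). The groups were not planned in advance. Not shown are Malat1 bin 10 alone and Meg3 bins 1 to 22, where the 18-month share lay within the 28-month range.

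The summed distance between profiles, the percent of counts that would have to change bin to make 2 libraries alike, described the same contrast. For Neat1 it was 2.98% between replicates 1 and 3, 9.51 and 8.32% between either and replicate 2, and 11.5, 19.5 and 12.4% between the 18-month library and replicates 1, 2 and 3. For Malat1 it was 4.21% between replicates 1 and 3, 10.2 and 8.20% to replicate 2, and 8.33, 16.8 and 9.51% from the 18-month library. For both genes the greatest distance was between the 18-month library and replicate 2. For Rian the distances within 28 months were 17.5 to 24.7% and those to the 18-month library 26.3 to 34.4%. For Meg3 they overlapped, at 29.1 to 76.2% within 28 months and 50.6 to 60.7% to the 18-month library.

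The edgeR test of bin use, which asks whether a bin's change differs from that of the rest of its gene, called no bin of these genes on all 4 libraries. It called 389 of 11000 genes when joined units were left out (3.54%). With joined units included, a choice made after seeing that 5 members are found only there, it called 425 of 11622 units (3.66%) and 602 of 154780 bins (0.389%), and among 44 tested bins of Malat1, Neat1, Meg3 and Rian it called 0. The Simes adjusted p was 1 for each of the 4 genes. The bin with the smallest p was Malat1 bin 13, with a log2 difference in use of -0.73 (p 0.500), Neat1 bin 1, with -1.002 (p 0.378), Meg3 bin 38, with 1.45 (p 0.442), and Rian bin 74, with 1.61 (p 0.243), all unadjusted edgeR p-values. Without replicate 2 the bin test called Neat1 bin 1, used less at 28 months (-0.82, edgeR adjusted p 0.0433), and Malat1 bin 4, used more (0.67, adjusted p 0.0483). These were 2 of 44 member bins (4.54%), beside 6.98% of all tested bins called in that fit, and the Simes adjusted p per gene was 0.1097 for Neat1 and 0.119 for Malat1.

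Ratios of 2 genes in the same library do not depend on scaling between libraries, and 4 such ratios of counts were compared. Neat1 to Malat1 was 3.26, 2.19 and 2.71 at 28 months versus 2.15 at 18 months. Rian to Meg3 was 5.42, 2.37 and 3.77 at 28 months versus 6.36 at 18 months, and Mirg to Meg3 was 0.462, 0.142 and 0.0250 against 0.0714. Kcnq1ot1 to Kcnq1 was 0.463, 1.76 and 0.164 at 28 months versus 0.716 at 18 months. The log2 differences were 0.32 for Neat1 to Malat1, -0.80 for Rian to Meg3, 0.72 for Mirg to Meg3 and -0.49 for Kcnq1ot1 to Kcnq1. Two-sided exact permutation p-values were 0.5 for the ratios Neat1 to Malat1 and Rian to Meg3 and 0.75 for the other two, and 0.75 for each after adjustment over the 4 ratios. Rian to Meg3 was lowest in replicate 2, the library where both genes were highest.

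Levels of different genes were compared per kb of annotated exon, and Malat1 and Neat1 led in every library. Malat1 was at 5.17, 29.7 and 5.34 CPM per kb at 28 months versus 10.1 at 18 months, and Neat1, over its whole length, at 5.67, 21.8 and 4.87 against 7.31. Their order changed from library to library. Rian was at 0.146, 0.676 and 0.173 CPM per kb at 28 months versus 0.189 at 18 months. In each library it lay below Malat1 and Neat1 and above the other three. Meg3 ran from 0.0215 to 0.227, Mirg from 0.00218 to 0.0769 and Kcnq1ot1 from 0.00320 to 0.0140 CPM per kb over the 4 libraries. The range of Mirg overlapped those of both Meg3 and Kcnq1ot1, while Meg3 lay above Kcnq1ot1 in all 4 libraries. A fragment may be counted in each bin it spans, which can raise genes of many bins. Meg3 has 41 bins, Mirg 68 and Kcnq1ot1 1, and the part of this in the order of the genes was not tested. Over the 3172 bases of the short isoform alone Neat1 was at 37.05, 143 and 31.7 CPM per kb at 28 months versus 47.5 at 18 months, above Malat1 in all 4 libraries.

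The genes whose 4 values were most like those of a member were found by the distance between log2 CPM values, each centred over the 4 libraries, among 8965 genes at a mean of at least 5 CPM. With 4 points, and 1 library far from the others, such likeness is easily reached. For Malat1 the nearest was Ccdc80 (distance 0.0777), at 49.4, 287 and 53.2 CPM at 28 months versus 93.6 at 18 months, followed by Tmeff1 and Itih5. For Neat1 it was Arap2 (0.141), at 3.04, 11.1 and 2.82 CPM against 3.99, followed by Atp2b4, which shares its unit with Mir6903, and Dnajb1. For Kcnq1ot1 it was Thbd (0.1003), then Fgf10 and Rbms3, and for Rian it was Tshr (0.141), then Dock10 and Srpx2. Meg3 was nearest to Socs3 (0.358), at 1.47, 20.6 and 3.06 CPM at 28 months versus 2.12 at 18 months, then Dock8 and Col15a1. Mirg had no close match, its nearest gene, Zfp185, being at 1.52.

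No gene of the 7 lists around these RNAs passed the edgeR test on all 4 libraries. Over all 15376 tested genes 8361 estimates lay above and 7015 below 0, the background for the split of each list below. Of the Dlk1-Dio3 domain and its flanks 10 of 13 genes were tested, with 6 estimates above and 4 below 0. The median log2 difference was 0.08, beside 0.06 over all tested genes. Evl, an actin regulator, had 0.81 ± 0.37 (edgeR adjusted p 0.860), and the transcription factor gene Yy1 had -0.44 ± 0.25. Of the Kcnq1 domain 10 of 13 were tested, with 7 above and 3 below 0 and a median of 0.20. Cdkn1c, an imprinted inhibitor of the cell cycle in that domain, stood at 7.10, 6.96 and 9.47 CPM at 28 months versus 13.2 at 18 months, outside the 28-month range, at -0.75 ± 0.31 (adjusted p 0.860). Of the neighbours of Malat1 and Neat1 12 of 13 were tested, with 10 above and 2 below 0 and a median of 0.30. Ltbp3, a TGF-beta binding protein, was at 36.8, 40.6 and 36.7 CPM against 22.4, or 0.76 ± 0.26 (adjusted p 0.860). Replicate 2 was over 2-fold above replicates 1 and 3 in 1 of the 12, beside 9.89% of all tested genes. That gene was Slc25a45 (named after its values were seen), at 1.77, 4.75 and 2.19 CPM against 2.50.

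The proteins that work with these RNAs showed no common direction. Of 18 paraspeckle protein genes 7 estimates lay above and 11 below 0, with a median of -0.16. Hnrnpa1, an RNA-binding protein needed for paraspeckles, was at 9.13, 9.36 and 10.7 CPM at 28 months versus 15.2 at 18 months, or -0.65 ± 0.27 (edgeR adjusted p 0.860). Tardbp, which encodes TDP-43, had -0.47 ± 0.29. The core paraspeckle genes Sfpq, Nono and Pspc1 had 0.31 ± 0.31, -0.26 ± 0.26 and 0.24 ± 0.28. Of 18 nuclear speckle protein genes 11 lay above and 7 below 0, with a median of 0.06, and Srsf5, a splicing factor gene, was at 47.2, 86.5 and 77.2 CPM against 37.97, or 0.89 ± 0.43. Replicate 2 was over 2-fold above replicates 1 and 3 in 0 of these 36 genes, beside 9.89% of all tested genes. The speckle genes still had a median log2 excess of 0.43 in replicate 2, against -0.04 for the paraspeckle genes and -0.02 over all tested genes. Srrm2, a scaffold protein of speckles (named after its values were seen), was at 83.6, 179 and 98.2 CPM at 28 months and 109.6 at 18 months.

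Among 24 other long noncoding RNAs tested, 15 estimates lay above and 9 below 0, with a median log2 difference of 0.53. Snhg6, a host of small nucleolar RNA, was the one with an unadjusted p under 0.05, at 11.4, 12.7 and 12.9 CPM at 28 months versus 6.22 at 18 months, or 0.99 ± 0.29 (edgeR adjusted p 0.860). In replicate 2 an excess over 2-fold was seen in 4 of the 24, beside 9.89% of all tested genes. These 4, named after their values were seen, included Snhg11, at 0.374, 8.41 and 0.397 CPM at 28 months versus 0.921 at 18 months. The others were Firre, a nuclear RNA of the X chromosome, at 0.344, 3.25 and 0.348 against 0.584, Snhg20 and Mir17hg. Tug1 was at 23.8, 41.4 and 23.7 CPM against 33.9, and Gas5 at 134, 137 and 167 against 156. Of the imprinted noncoding RNAs, Airn was at 5.73, 5.68 and 5.32 CPM against 3.56. H19, expressed from the maternal chromosome, had its lowest value in replicate 2, at 427, 79.6 and 375 CPM against 231, the reverse of the maternally expressed Meg3, Rian and Mirg. Without replicate 2 the log2 difference was 0.73 for Ltbp3, 0.99 for Snhg6, 0.82 for H19 and -0.68 for Srsf1. These genes were picked after their values were seen. In that fit the list medians were 0.47 for the neighbours of Malat1 and Neat1 and 0.13 for the other long noncoding RNAs. They were 0.65 for the other imprinted noncoding RNAs and -0.14 for the speckle genes, beside 0.03 over all tested genes.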

How the data were processed

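The deposited tables, 1 per library, hold raw counts per exonic bin (374286 bins). Per the submitters' processing notes the authors used bcl2fastq 1.8.3, TopHat2 2.0.4 and GRCm38. The counter and the annotation are not given in the sources used here. Antisense-covered bins kept their counts (Gnas bin 44 had 68986, its antisense partner Gm20721 had 0), so strand was used in counting. Bins of a few bases held many counts, so gene sums may count a fragment more than once.

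Symbols came from GENCODE M21 (40254 of 41388 genes). Bins were placed by flattening M21 transcripts numbered up to 192000, the limit that gave the most equal bin numbers (23001 of 26257 units with several bins). Special entries (3.36 to 5.20% of entries) were left out. Gene sums with a mean count of at least 10 were tested with edgeR quasi-likelihood after TMM scaling (factors 0.877 to 1.284, 2 residual degrees of freedom), and bins with diffSpliceDGE, with Benjamini-Hochberg adjustment over all genes or bins and calls at 0.05. List genes named were the 4 with the smallest p among those averaging 1 CPM or more, and others where stated, and some list genes are not reported here. The 6 RNAs and all lists were chosen with earlier results of these data known.

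Alternatives were other scalings, filters and tests, the largest bin, and each 28-month library left out. Python 3.11.15 (numpy 2.4.6, scipy 1.17.1, pandas 2.3.3, matplotlib 3.10.9) and R 4.3.3 with DESeq2 1.42.0, limma 3.58.1 and edgeR 4.0.16 were used.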

Additional observations from a re-analysis of the deposited data

How the results depend on the processing

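The count of genes called between the ages was 0 with DESeq2 size factors, library totals, no filter, a minimum mean count of 50 and the largest bin per gene, 31 by the DESeq2 Wald test (none a member), and between 1 and 1806 when a 28-month library was left out, with 1806 without replicate 2. Kcnq1ot1 changed sign with library totals (0.052) and the largest bin (0.32). It has a single bin, so with the largest bin its counts were the same and the library totals and scaling factors differed. Its sign also varied with a 28-month library left out (-1.11 to 0.19, with 0.13 without replicate 1). Leaving out a library gave -0.92 to 0.79 for Malat1, -0.45 to 0.91 for Neat1 and -0.22 to 1.17 for Rian, the negative values without replicate 2. Meg3 and Mirg kept their sign in all 9 and 7 alternatives that gave a value. Library totals moved the median of all genes to 0.10. The bin use count of 389 became 1765 with limma voom, 234 at a minimum bin mean of 30, 206 without first and last bins, 3375 by the gene F-test, and between 164 and 3299 with a 28-month library left out. With joined units included, an alternative chosen after seeing the data, it was 425, and 237, 3543 and 180 without replicates 1, 2 and 3. The log2 difference of the ratio Neat1 to Malat1 changed sign with the largest bins (-0.10), that of Mirg to Meg3 ranged from -0.26 (without replicate 1) to 1.84 (without replicate 3), and that of Kcnq1ot1 to Kcnq1 from -1.38 to 0.34 (without replicate 3). Mean profile distances to the 18-month library moved from 55.0 to 20.9% for Meg3 and from 31.7 to 27.0% for Rian with bins of a mean count of at least 10, and from 66.8 to 100% for Mirg when thinned to 1 count. With 1 count per library a distance can only be 0 or 100%, and for Meg3 2 of 41 bins passed that filter. The cause of the other shifts was not tested. The Neat1 isoform difference moved from -1.35 to -0.85 with bin 2 as the short region, chosen after seeing the data. That ratio on bins wholly in the first 3 kb and last 10 kb could not be computed, since no bin lies wholly in the latter. No paired analysis was possible because the 18-month group has 1 library, whose label carries no replicate number. Depth limits Mirg, Meg3 and Kcnq1ot1, which had 1 to 48 counts outside replicate 2.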
